A study of Equus caballus with 16 samples.

Results

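Extracellular vesicles of mare follicular fluid (FF-EVs) were examined for 6 miRNAs that are known from granulosa cells, the steroid-producing cells that line the follicle, and from their response to gonadotropins. The names were miR-132, miR-212, miR-224, miR-378, miR-383 and miR-202. They were matched to the rows of the expression table by name alone, without use of any measured value. A row was matched for 5 of the 6 names among the 686 miRNAs listed, of which 324 had at least 1 read, and miR-202 was not analysed here. The small RNA came from FF-EVs of mares aged 8 to 14 years, taken from growing follicles of 30 to 35 mm and pelleted by ultracentrifugation. The 4 groups were the spring anovulatory season (SAN, March), spring after ovulation resumed (SOV, April to May), summer (SUM, June to July) and fall (FOV, September), the last 3 being ovulatory, with 4 libraries each. The groups differed by season and by no stated treatment or genetic change. In every season the study describes ablation of the ovarian follicles after the previous ovulation, to induce a new follicular wave. The mares were sedated for sampling in every season, and each library combined the fluids of 2 to 3 mares. Some mares gave fluid in more than 1 season, while the tests treat libraries as independent.

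In the ovary of other mammals these miRNAs act at different points of the gonadotropin and steroid pathways. The pair miR-132 and miR-212 is cut from a shared transcript that luteinizing hormone induces through cAMP in mouse granulosa cells, where the pair represses the corepressor CtBP1, and neurons make the same pair in response to CREB. In mouse granulosa cells, miR-224 is induced by TGF-β1, represses Smad4 and raises estradiol output, and miR-383 is driven by the nuclear receptor SF-1, represses Rbms1 and also raises estradiol. In porcine granulosa cells, miR-378 represses aromatase (CYP19A1), the enzyme that makes estradiol. Vesicles in follicular fluid can also come from blood and other tissues, so a level in FF-EVs is not a level in granulosa cells, and fewer vesicles of one source cannot be told apart from less of a miRNA per vesicle.

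The mature sequences are shown because they decide which members can share targets and how well reads of the related pair can be told apart. They are the horse sequences listed by the study, written 5′ to 3′ as DNA, with the seed (bases 2 to 8, which pair with targets) in capitals.
miR-132: tAACAGTCtacagccatggtcg
miR-212: tAACAGTCtccagtcacggcc
miR-224: cAAGTCACtagtggttccgtt
miR-378: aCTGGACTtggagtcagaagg
miR-383: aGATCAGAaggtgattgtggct
The seed AACAGTC was common to miR-132 and miR-212 and was found in none of the other mature sequences among the 282 searched. The seeds of miR-224, miR-378 and miR-383 occurred in no other of the 282 sequences. Over the 21 positions of miR-212, 17 were identical in miR-132 (81.0%). The differences, counted from 1 at the 5′ end with the base of miR-132 first, were A10C, C14T, T17C and T20C, and miR-132 had 1 further base at its 3′ end. A read of the pair that reaches position 10 therefore holds a base that tells them apart, and the study describes the assignment of reads as run at default settings, with no number of mismatches printed.

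The depth set what could be seen. A library held between 27131 and 112146 reads assigned to a miRNA, with a median of 51696. The deposited values are CPM, read counts scaled to a common library size that was adjusted by the trimmed mean of M values (TMM), and 1 read was worth 7.91 to 35.6 CPM depending on the library. Levels are therefore given as CPM with the reads behind them, and intervals from reads cover counting error only. The library FOV_1 was left out of the tests, as the study did. It is shown beside the other 3 FOV libraries.

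The members spanned a wide range of abundance. By mean CPM over the 15 libraries tested, miR-378 ranked 27th of the 322 miRNAs with a read in them, miR-224 ranked 110th, miR-132 ranked 115th, miR-383 ranked 228th and miR-212 ranked 256th. The reads over all 16 libraries numbered 7067 for miR-378, 220 for miR-224, 160 for miR-132, 15 for miR-383 and 6 for miR-212. Abundant miR-378 was present in 16 of 16 libraries, miR-132 in 15, miR-224 in 14, and miR-383 and miR-212 in 4 each. The order of miR-378 above every other member held in every library. The order of miR-132 and miR-224 did not: miR-224 was the higher in SAN_4, SOV_4 and SUM_2, each had as many reads as the other in SOV_2, SUM_3 and FOV_1, and miR-132 was the higher in the other 10 libraries. The mature forms are 21 or 22 bases long, and how well each sequence was ligated and amplified was not measured, so this order is one of reads and not of molecules.

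**Figure D1:**
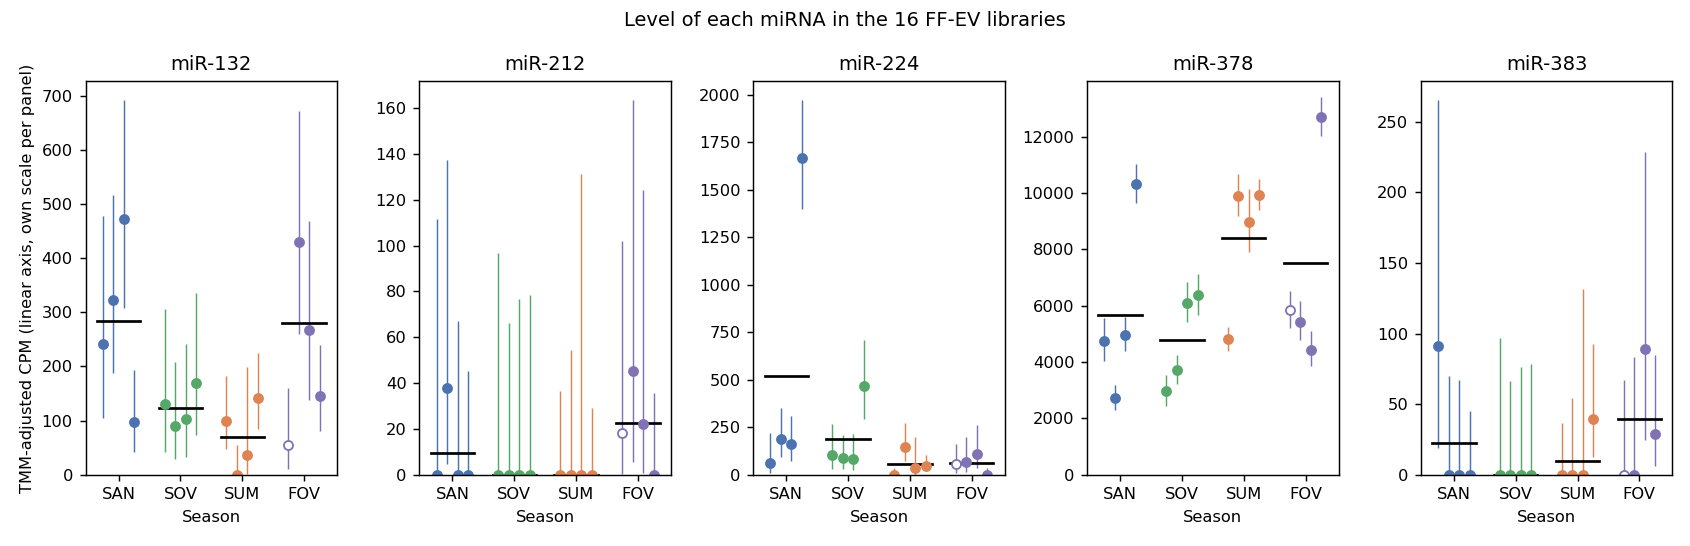
CPM of each of the 5 members in every library, 1 panel per member, with seasons in calendar order on the x axis, short lines at season means and an open symbol for FOV_1, which is outside the mean. MiR-378 lies between 2718 and 12709 CPM throughout, 1 SAN library stands at 1667 CPM for miR-224, and miR-212 and miR-383 are at 0 in 12 libraries each.

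No member was called between seasons by limma. All 5 members were among the 282 miRNAs tested, those whose mean exceeded 10 CPM in 1 season or more. The filter admitted miR-212 only through its FOV mean of 22.5 CPM, and miR-383 only through SAN and FOV. A call needed a Benjamini-Hochberg adjusted p under 0.05 over the 282 miRNAs together with a 2-fold difference or more. Each log2 FC is the later season minus the earlier, on the log2(CPM + 1) scale. Across the 4 seasons together, 0 of 5 members passed an adjusted p under 0.05, against 13.8% of all miRNAs tested, and 1 of 5, miR-132, had an unadjusted p under 0.05, against 29.8% of all. In SUM vs. SAN, 0 of 5 were called (9.57% of all), and 2 of 5 had an unadjusted p under 0.05, against 28.4% of all. In SUM vs. SOV, 0 of 5 were called (17.7% of all) and 0 of 5 had an unadjusted p under 0.05, against 29.1% of all. In FOV vs. SUM the members called were 0 of 5 (3.55% of all). There 2 of 5, miR-132 and miR-212, had an unadjusted p under 0.05, against 17.4% of all. In FOV vs. SOV 0 of 5 were called (2.84% of all), with 1 of 5, miR-212, at an unadjusted p under 0.05, against 23.0% of all. The p values of miR-212 in these 2 comparisons support nothing, since only FOV admitted it and the other season had no read. FOV vs. SAN called 0 of 5 (0.709% of all) and SOV vs. SAN called 0 of 5 (0% of all), both with 0 of 5 at an unadjusted p under 0.05, against 14.9% of all in FOV vs. SAN and 11.0% in SOV vs. SAN. The edgeR quasi-likelihood test on the reads recovered from the values also called 0 of 5 in each comparison, while DESeq2 on those reads called 2 of 5, miR-132 and miR-224, in SUM vs. SAN and 0 elsewhere.

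The libraries of 2 seasons were also compared without a model, by whether their values overlapped. The only member whose values did not overlap was miR-132 in FOV vs. SUM, 1 of 5 beside 15.6% of all miRNAs. In the other comparisons 0 of 5 members were free of overlap, beside 17% of all miRNAs in SUM vs. SAN, 21.6% in SUM vs. SOV, 18.8% in FOV vs. SOV, 12.4% in FOV vs. SAN and 2.13% in SOV vs. SAN.

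**Figure D2:**
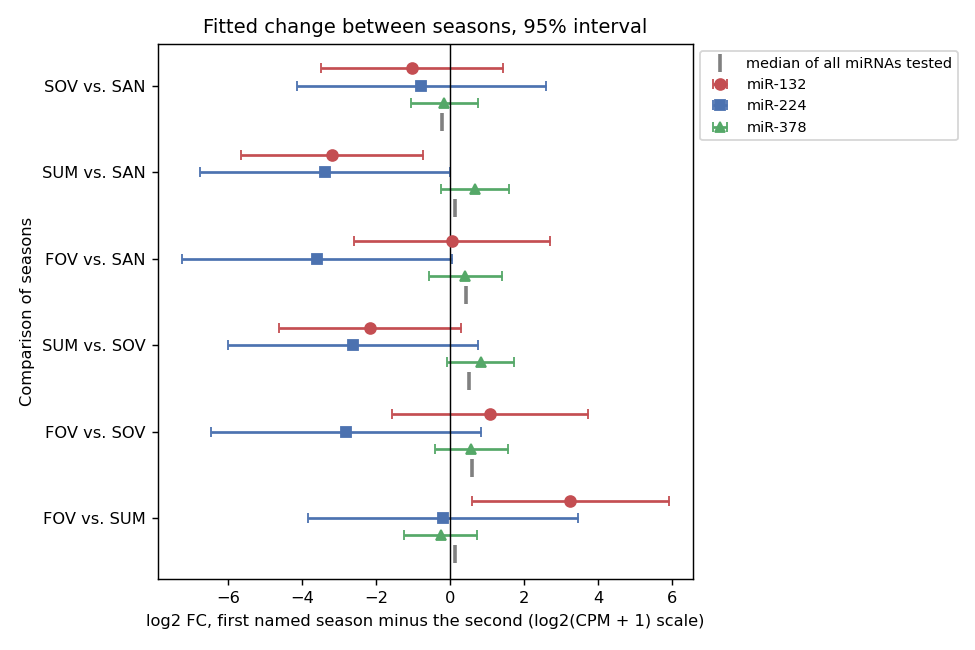
Log2 FC on the log2(CPM + 1) scale with its 95% interval (bars) for miR-132, miR-224 and miR-378 in the 6 comparisons, the later season minus the earlier, with a grey tick at the median of all miRNAs tested. The intervals of miR-378 are the narrowest and span 0 throughout, and that of miR-132 in SUM vs. SAN runs from -5.65 to -0.74.

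The gonadotropin-induced miR-132 had its highest means in SAN and FOV and its lowest in SUM, differences that limma did not call. In SAN it had 242, 323, 473 and 98.1 CPM (8, 17, 26 and 8 reads), and in SOV 131, 89.5, 104 and 170 CPM (5, 5, 5 and 8 reads). In SUM it had 99.1, 0, 35.6 and 142 CPM (10, 0, 1 and 18 reads). In FOV_1 it had 54.8 CPM (3 reads), and in FOV_2, FOV_3 and FOV_4 430, 268 and 145 CPM (19, 12 and 15 reads). The SAN libraries apart from SAN_4 stood above every SOV and SUM library, and SUM_2 gave no read, which allows a level of up to 44.4 CPM there. Means were 284 ± 156 CPM in SAN, 124 ± 35.4 CPM in SOV and 69.3 ± 63.7 CPM in SUM (SD, n = 4 each), and 281 ± 143 CPM in FOV (SD, n = 3). With FOV_1 the FOV mean was 224 ± 163 CPM (SD, n = 4).

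Tested with limma, miR-132 had a season effect at adjusted p = 0.162. In SUM vs. SAN its log2 FC was -3.20 (SE 1.17, adjusted p = 0.0817 by limma), and DESeq2 on the reads gave -1.97 with an adjusted p of 0.0256. The size rested on the library without a read, since the log2 FC was -1.61 (adjusted p = 0.157) without SUM_2. In FOV vs. SUM the log2 FC was 3.25 (SE 1.26, adjusted p = 0.181 by limma), and 1.67 (adjusted p = 0.312) without SUM_2. In that comparison the lowest of the 3 FOV libraries had 145 CPM and the highest SUM library 142 CPM, and the exact 95% Poisson intervals of these libraries overlapped, with upper bounds of 239 CPM in FOV and 225 CPM in SUM. With FOV_1 at 54.8 CPM the seasons overlapped. In SUM vs. SOV the log2 FC was -2.17 (adjusted p = 0.216), in SOV vs. SAN -1.03 (adjusted p = 0.790) and in FOV vs. SOV 1.09 (adjusted p = 0.622). Between FOV and SAN it was 0.06 with a 95% interval from -2.60 to 2.71, wide enough to hold a change of several fold either way.

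Libraries within a season differed in miR-132 by more than counting alone would give in 3 of the seasons. The chi-square of reads against equal CPM, divided by its degrees of freedom, was 6.07 in SAN and 0.51 in SOV. It was 3.66 in SUM and 5.39 in FOV without FOV_1. The 4 SOV libraries therefore lay within the spread that 5 to 8 reads allow. The residual SD of miR-132 in the fit was 1.83 on the log2 scale, against a median of 1.72 over all 282 miRNAs, and 54.3% of them had a lower one.

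The miRNA most like miR-132 over the libraries was miR-129a-5p, followed by miR-196a. Pearson's r on log2(CPM + 1) was 0.94 for miR-129a-5p and 0.86 for miR-196a over 16 libraries that share depth, pooling and season, and these are descriptions. For miR-129a-5p Spearman's rho was 0.83, and r was 0.80 over the 15 libraries other than SUM_2, where miR-129a-5p had 14.8 CPM. The second place was not stable, and went to miR-9a at a pseudocount of 5 CPM and to miR-135a at 20 CPM. Per library, miR-129a-5p, a miRNA enriched in brain, had 484, 741, 636 and 184 CPM in SAN and 262, 430, 312 and 616 CPM in SOV. It had 674, 14.8, 142 and 546 CPM in SUM, 238 CPM in FOV_1 and 883, 1049 and 531 CPM in FOV_2 to FOV_4. For both miRNAs SAN_4 was thus the lowest SAN library, SUM_2 the lowest SUM library, FOV_1 the lowest FOV library and SOV_4 the highest SOV library. The lowest SOV library and the highest SAN, SUM and FOV libraries differed between miR-132 and miR-129a-5p.

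Levels of miR-9a, a miRNA of the brain list, went with those of miR-132. The brain list held miR-9a and miR-124, of which miR-9a had reads in every library (177 to 27188 CPM) and miR-124 was at 0 in 8 libraries, with a maximum of 290 CPM. Summed, the list had 27279, 17601, 14267 and 1704 CPM in SAN and 2592, 627, 644 and 23261 CPM in SOV. It had 19879, 177, 249 and 12805 CPM in SUM, 603 CPM in FOV_1 and 11482, 12811 and 4458 CPM in FOV_2 to FOV_4. Pearson's r between miR-132 and the summed list was 0.74 and Spearman's rho 0.76 over 16 libraries. With miR-9a alone, which made up most of the sum, r was 0.74 and Spearman's rho 0.75. Every library with more than 200 CPM of miR-132 had at least 11482 CPM of the list, while SUM_1, SUM_4 and SOV_4 had as much of the list with 99.1, 142 and 170 CPM of miR-132. With the miR-9a level as a covariate, an alternative added after seeing the data, the log2 FC of miR-132 in SUM vs. SAN was -1.87 (adjusted p = 0.233 by limma) and in FOV vs. SUM 2.08 (adjusted p = 0.304). In SOV vs. SAN it was 0.15 with the covariate. SUM_2, without a read of miR-132, also had the highest sum of the erythrocyte list, 73542 CPM. The next highest on that list, FOV_3 and FOV_2 at 29105 and 24527 CPM, had 268 and 430 CPM of miR-132. Over 16 libraries r between miR-132 and the erythrocyte list was -0.49 and Spearman's rho 0.25. The part of these lists in the result was not tested. The covariate cannot decide it, since miR-9a was picked after seeing the data, and the erythrocyte list had no such fit.

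**Figure D3:**
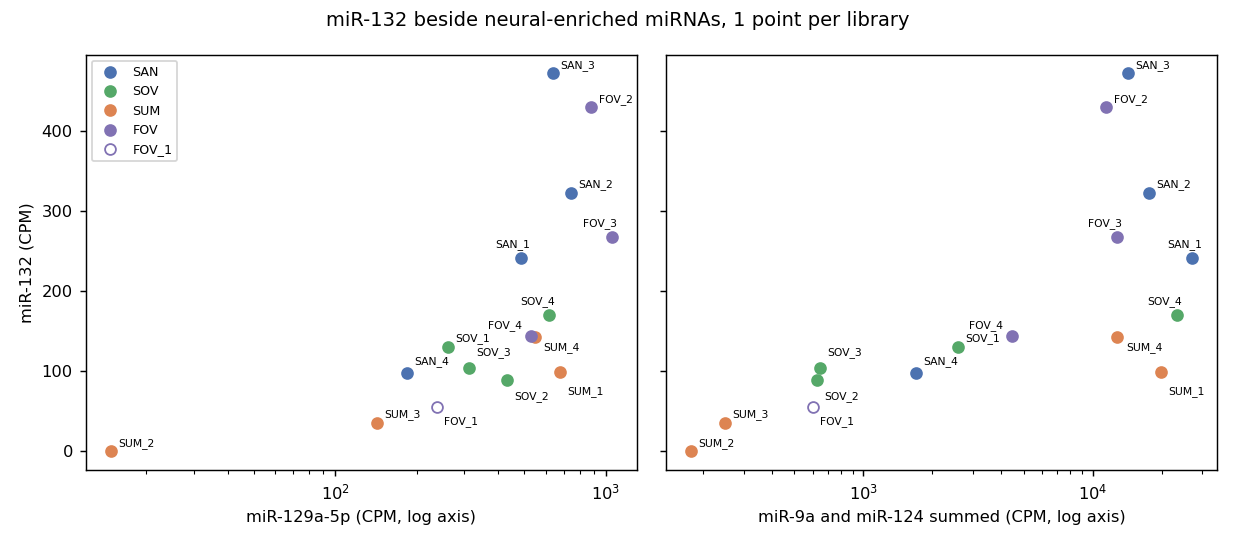
CPM of miR-132 in each library (y axis, linear) against miR-129a-5p (left) and the summed brain list of miR-9a and miR-124 (right), both on log x axes, with colours for seasons and an open symbol for FOV_1. SUM_2, at 0 CPM of miR-132, is lowest on both x axes, and SAN_3 and FOV_2 are highest for miR-132 at 473 and 430 CPM.

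The partner miR-212 was near the limit of detection. It had 2 reads in SAN_2 (38.0 CPM), 1 in FOV_1 (18.3 CPM), 2 in FOV_2 (45.3 CPM) and 1 in FOV_3 (22.3 CPM), and none in the other 12 libraries. The 4 SOV libraries together allow a level of up to 15.9 CPM and the 4 SUM libraries up to 9.29 CPM, taking 3 reads over the season as the limit of a count of 0. Of the 166 reads of the pair, 3.61% were miR-212 (exact 95% Clopper-Pearson interval 1.34 to 7.70%). Of the 4 libraries with a miR-212 read, 3 had 268 CPM or more of miR-132, as did SAN_3, which gave no miR-212 read.

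With counts this low no fold is given for miR-212. The limma test gave adjusted p = 0.245 for the season effect, adjusted p = 0.185 in FOV vs. SOV and adjusted p = 0.230 in FOV vs. SUM. Because miR-212 entered the test only through its FOV mean, and SOV and SUM had no read, the p values of these 2 comparisons support nothing. With 1 library left out the adjusted p ran from 0.0475 to 0.377 in FOV vs. SOV and from 0.0290 to 0.571 in FOV vs. SUM, lowest without FOV_4, which had no read, and highest without FOV_2, which had 2 of the reads.

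Levels of miR-224, the TGF-β1-responsive member, were set by single libraries in the spring. In SAN it had 60.6, 190, 164 and 1667 CPM (2, 10, 9 and 136 reads), and in SOV 105, 89.5, 83.1 and 467 CPM (4, 5, 4 and 22 reads). In SUM it had 0, 148, 35.6 and 47.5 CPM (0, 10, 1 and 6 reads), in FOV_1 54.8 CPM (3 reads), and in FOV_2 to FOV_4 67.9, 112 and 0 CPM (3, 5 and 0 reads). The library SAN_4 alone held 61.8% of the 220 reads of miR-224 and stood 8.77-fold above the next SAN library, and SOV_4 held 10.0% and stood 4.46-fold above the next SOV library. The mean was 520 ± 767 CPM in SAN and 186 ± 188 CPM in SOV (SD, n = 4 each). It was 138 ± 68.4 CPM in SAN without SAN_4 and 92.4 ± 11.1 CPM in SOV without SOV_4 (SD, n = 3 each). The mean was 57.7 ± 63.4 CPM in SUM (SD, n = 4) and 59.8 ± 56.2 CPM in FOV (SD, n = 3).

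Tested with limma, miR-224 gave a season effect at adjusted p = 0.245. In SUM vs. SAN its log2 FC was -3.39 (SE 1.61, adjusted p = 0.176), against -3.12 with an adjusted p of 0.0265 by DESeq2. Without SAN_4 the log2 FC by limma was -2.46 (adjusted p = 0.400), and without SUM_1, the SUM library with no read, it was -1.89 (adjusted p = 0.436). In FOV vs. SAN it was -3.59 (SE 1.74, adjusted p = 0.332), and -1.44 (adjusted p = 0.732) without FOV_4, the FOV library with no read. In SUM vs. SOV it was -2.62 (adjusted p = 0.271) and in FOV vs. SOV -2.81 (adjusted p = 0.323). The smallest differences were -0.77 in SOV vs. SAN (adjusted p = 0.901) and -0.20 in FOV vs. SUM (adjusted p = 0.981), the last with a 95% interval from -3.85 to 3.46. The spread of miR-224 was wide, with a residual SD of 2.59 on the log2 scale, and 87.2% of the 282 miRNAs had a lower one. Its chi-square per degree of freedom was 56.3 in SAN and 9.03 in SOV, and lay between 5.17 and 5.73 in SUM and in FOV without FOV_1.

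By pattern, miR-224 was most like miR-133a (r = 0.71) and miR-140-3p (r = 0.69) over 16 libraries. These places were not stable: at pseudocounts of 5 and 20 CPM miR-140-3p came first and miR-98 second. In SUM_1 and FOV_4 miR-133a, a muscle miRNA, had 9.91 and 9.65 CPM and miR-224 none, and with 1 or the other of these libraries left out r was 0.56 and Spearman's rho 0.17. Without SAN_4 r was 0.84 and Spearman's rho 0.45. Between miR-224 and the summed muscle list r was 0.21, and in SAN_4, the library with the most miR-224, miR-133a had 73.6 CPM, its lowest value in SAN.

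The aromatase-targeting miR-378 was the only abundant member and the only one with reads in every library. In SAN it had 4753, 2718, 4962 and 10311 CPM (157, 143, 273 and 841 reads), and in SOV 2958, 3706, 6086 and 6373 CPM (113, 207, 293 and 300 reads). In SUM it had 4809, 9908, 8976 and 9942 CPM (485, 670, 252 and 1257 reads). In FOV_1 it had 5846 CPM (320 reads), and in FOV_2 to FOV_4 5435, 4442 and 12709 CPM (240, 199 and 1317 reads). All but 1 of the SUM libraries lay above every SOV library, and SUM_1 lay among them, while SAN_4 and FOV_4 each stood far above the rest of their season. Means were 5686 ± 3245 CPM in SAN, 4781 ± 1704 CPM in SOV and 8409 ± 2441 CPM in SUM (SD, n = 4 each), and 7529 ± 4514 CPM in FOV (SD, n = 3). As a share of the reads assigned to miRNAs in a library, miR-378 made up 0.274 to 1.17%, and it ranked between 18 and 40 among the miRNAs of a library.

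No season difference in miR-378 passed the test. The limma season effect had an adjusted p of 0.381. In SUM vs. SOV the log2 FC was 0.83 (SE 0.43, adjusted p = 0.208) with a 95% interval from -0.08 to 1.74. In SUM vs. SAN it was 0.67 (adjusted p = 0.326), in FOV vs. SOV 0.57 (adjusted p = 0.451) and in FOV vs. SAN 0.41 (adjusted p = 0.697). Without FOV_4 the FOV mean was 4939 ± 703 CPM (SD, n = 2), and the log2 FC was 0.11 in FOV vs. SOV (adjusted p = 0.933) and -0.045 in FOV vs. SAN (adjusted p = 0.996). In SOV vs. SAN it was -0.16 with an interval from -1.07 to 0.75, and in FOV vs. SUM -0.26 with an interval from -1.24 to 0.72. These differences stand beside a median log2 FC over all 282 miRNAs of 0.51 in SUM vs. SOV, 0.14 in SUM vs. SAN, 0.60 in FOV vs. SOV, 0.43 in FOV vs. SAN, -0.22 in SOV vs. SAN and 0.14 in FOV vs. SUM. Another scaling, the median of ratios, moved these medians to 0.26 in SUM vs. SOV, 0.11 in SUM vs. SAN, 0.29 in FOV vs. SOV, 0.34 in FOV vs. SAN, 0 in SOV vs. SAN and 0.070 in FOV vs. SUM, and turned the SOV vs. SAN difference of miR-378 to 0.10. The residual SD of miR-378 was 0.66 on the log2 scale, and only 19.5% of the 282 miRNAs had a lower one. Counting error was a small part of it, since the chi-square per degree of freedom ran from 27.1 to 160 within seasons.

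The miRNAs most like miR-378 were miR-1839 (r = 0.71) and miR-676 (r = 0.69). They changed places at pseudocounts of 5 and 20 CPM, and miR-27a came second at 0.25 CPM. MiR-1839 had 932, 769, 677 and 925 CPM in SUM libraries, 136 to 425 CPM in the SAN, SOV and FOV libraries other than FOV_4, and 1216 CPM in FOV_4, the library with the most miR-378. Members did not follow each other: r was -0.43 between miR-132 and miR-378, -0.15 between miR-224 and miR-378 and -0.01 between miR-132 and miR-224. Within seasons the picture was mixed. SAN_4 had the highest miR-224 and miR-378 and the lowest miR-132 of the SAN libraries. In FOV_4 miR-378 was at its highest, while miR-224 had no read. SOV_4 instead was the highest SOV library for miR-132, miR-224 and miR-378 alike (170, 467 and 6373 CPM).

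The SF-1-driven miR-383 gave 15 reads in all. It had 3 reads in SAN_1 (90.8 CPM), 5 in SUM_4 (39.5 CPM), 4 in FOV_3 (89.3 CPM) and 3 in FOV_4 (29.0 CPM). The other 12 libraries had none, among them every SOV library, which together allow up to 15.9 CPM. No fold is given with so few reads. The limma season effect had an adjusted p of 0.399, and FOV vs. SOV had an adjusted p of 0.220, on a member that entered the test only through SAN and FOV.

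Other miRNAs studied in granulosa cells were counted from a list of 15 names, of which 12 had a matched row and all 12 were tested. In SUM vs. SAN, 1 of 12 rose and 2 fell, beside calls for 9.57% of all miRNAs, and in SUM vs. SOV 2 of 12 rose and 1 fell, beside 17.7%. In FOV vs. SOV 2 of 12 rose and 0 fell, beside 2.84% of all, and in FOV vs. SUM 1 of 12 rose and 0 fell, beside 3.55%. In SOV vs. SAN (0% of all) and in FOV vs. SAN (0.709% of all) 0 of 12 were called. The median log2 FC of the list was -0.29 in SUM vs. SAN, -0.59 in SUM vs. SOV, 0.01 in FOV vs. SOV, 0.31 in FOV vs. SUM, -0.04 in SOV vs. SAN and -0.05 in FOV vs. SAN. The list is described by these counts, beside the same medians over all miRNAs given above. It was chosen with earlier results of these data known, so the counts support nothing about granulosa miRNAs as a set.

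The called miRNAs of the list were miR-145, miR-27a, miR-92a and miR-125b-5p. MiR-145, which in other species is abundant in smooth muscle and in mouse granulosa cells restrains proliferation, averaged 386 ± 75.1 CPM in SUM, against 2997 ± 594 CPM in SAN and 3653 ± 770 CPM in SOV (SD, n = 4 each). It fell by 2.95 on the log2 scale in SUM vs. SAN (adjusted p = 1.3e-05) and by 3.23 in SUM vs. SOV (adjusted p = 3.4e-06), and rose by 2.78 in FOV vs. SUM (adjusted p = 9.1e-05), with 2820 ± 1172 CPM in FOV (SD, n = 3). MiR-27a averaged 9432 ± 809 CPM in SUM, against 3924 ± 1606 CPM in SAN and 3519 ± 307 CPM in SOV. It rose by 1.35 in SUM vs. SAN (adjusted p = 0.0277), by 1.42 in SUM vs. SOV (adjusted p = 0.0115) and by 1.69 in FOV vs. SOV (adjusted p = 0.0188). The first of these calls was lost without any 1 of SAN_1, SAN_2, SAN_3, SUM_2, SUM_3 or SUM_4 (adjusted p up to 0.0807), and the last without FOV_4 (log2 FC 1.17, adjusted p = 0.0839). MiR-92a, of the miR-17 family of clusters, rose by 1.49 in SUM vs. SOV (adjusted p = 0.00123) and by 1.64 in FOV vs. SOV (adjusted p = 0.00850). MiR-125b-5p fell by 1.16 in SUM vs. SAN at an adjusted p of 0.0475, a call lost with edgeR (adjusted p = 0.111) and without any 1 of SAN_2, SAN_3, SAN_4, SOV_1, SOV_2, SOV_3, SUM_2, SUM_3, SUM_4, FOV_2 or FOV_3 (adjusted p 0.0510 to 0.105). The most abundant member of the list, miR-21, which luteinizing hormone induces in mouse granulosa cells, had 71163 ± 22678 CPM in SAN, 110870 ± 56769 CPM in SOV and 97240 ± 83783 CPM in SUM (SD, n = 4 each), and 49314 ± 8262 CPM in FOV (SD, n = 3), and was called in no comparison.

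**Figure D4:**
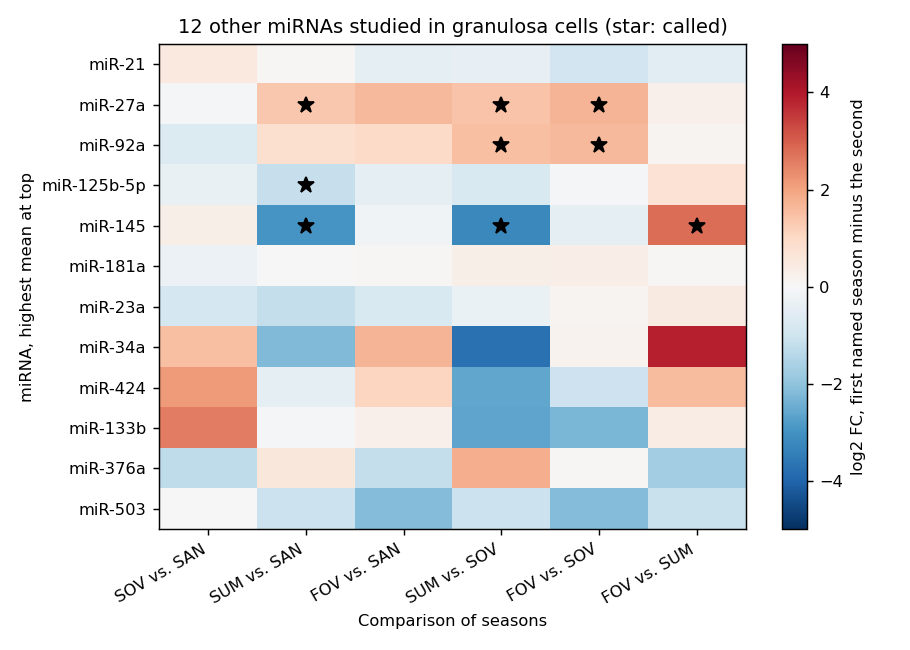
Log2 FC on the log2(CPM + 1) scale (colour, first named season minus the second) of the 12 tested miRNAs of the granulosa list in the 6 comparisons, highest mean at the top, with a star where limma called the miRNA. The stars fall on miR-27a, miR-92a, miR-125b-5p and miR-145, and miR-34a in SUM vs. SOV and FOV vs. SUM has dark cells without a star.

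The libraries also held reads of miRNAs listed as markers of other tissues, whose origin was not tested. The 4 erythrocyte miRNAs (miR-451, miR-144, miR-486-5p and miR-486-3p) summed to 8031 to 14558 CPM in SAN, 6979 to 13447 CPM in SOV, 8589 to 73542 CPM in SUM and 19339 to 29105 CPM in the 3 FOV libraries tested, with miR-144 at 0 in 10 of 16 libraries. Liver-specific miR-122 had 2851 to 4663 CPM in SAN, 602 to 4100 CPM in SOV, 7181 to 9450 CPM in SUM and 1200 to 14664 CPM in FOV. The 4 muscle miRNAs (miR-1, miR-133a, miR-133b and miR-206) summed to 1732 to 55527 CPM over these libraries, with miR-133b at 0 in 10 of 16, and the 4 leukocyte miRNAs (miR-223, miR-142-3p, miR-142-5p and miR-150) to 121 to 819 CPM. Between miR-378 and the liver list r was 0.53, with Spearman's rho of 0.39, and between miR-378 and the leukocyte list r was 0.44, with Spearman's rho of 0.47. The labelled follicular source could not be checked with miR-202, the gonad-enriched marker of the list. The part of these tissues in the levels of miR-224 and miR-378 was not tested.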

How the data were processed

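Sequenced were 16 small RNA libraries of FF-EVs, 4 for every season, from pooled follicular fluids (2 to 3 mares). As deposited, the values are a signal, TMM-adjusted CPM, which the authors describe as made in CLC Genomics Workbench 21 with miRBase 22 and EquCab3.0, whereas the submitters' processing notes name bcl2fastq, Bowtie2 2.2.2 and DESeq2, and which of these made the table was not settled. In 100% of 10976 values, the value was a whole multiple of the smallest value above 0 in its library (tolerance 1e-06 reads). That smallest value was taken as 1 read, and read counts were recovered from it. Reads assigned to miRNAs were 27131 to 112146 per library, and limits for a count of 0 use 3 reads.

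Of the miRNAs, 282 had a season mean over 10 CPM and entered a limma 3.58.1 fit (R 4.3.3, intensity trend) of log2(CPM + 1), in 1 model of 4 seasons and 15 libraries without FOV_1, with 6 contrasts and a moderated F test. All adjusted p values come from this two-sided limma fit unless another tool is named. Each p sets a difference only against the spread between these pooled libraries, which the fit shares over seasons and moderates over the miRNAs tested. The fit was repeated with FOV_1, with a pseudocount of 0.25, 5 or 20 CPM, without the filter, with a cut-off of 100 CPM, and with equal totals, median-of-ratios scaling, TMM over 15 libraries, the compared seasons fitted alone, a replicate block, edgeR 4.0.16 and DESeq2 1.42.0 on recovered reads, each library left out, and, added after seeing the data, miR-9a as a covariate. Figures were drawn with Python 3.11.15 and matplotlib 3.10.9.

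Named were the members, the 2 miRNAs with the highest Pearson r to each member with reads in at least 8 libraries, miRNAs of the granulosa list called in a comparison, and the marker lists for erythrocyte, leukocyte, liver, muscle and brain. MiR-21, miR-135a and miR-98 are not covered by it and were picked with their values in view. The members and lists were chosen with earlier results of these data known.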

Additional observations from a re-analysis of the deposited data

Results flagged for a closer look

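Within a season of 4 libraries, 1 library stood apart from the other 3 for a member in 6 of the 17 groups that could be checked (gap over range above Dixon's 95% critical value). Chance flags about 1 in 20 groups of normally distributed values, a rate that does not carry over to groups of a few reads. The groups at 0 in all 4 libraries, 3 in number, could not be checked. For miR-224 these were SAN_4 at 1667 CPM and SOV_4 at 467 CPM. For miR-378 it was FOV_4 at 12709 CPM, with a gap of 0.830 that barely passed. For miR-212 in SAN it was SAN_2 at 38.0 CPM, and for miR-383 it was SAN_1 at 90.8 CPM in SAN and SUM_4 at 39.5 CPM in SUM, each the only library of its season with a read, so that these 3 gaps are full by construction.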

How the results depend on the processing

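Members were called in no comparison by the main test. Of 252 member results with a log2 FC under the alternatives other than leaving out a library, 240 kept their direction and their side of the threshold, 10 were reversed and 2 newly passed, and the 206 results given as an adjusted p alone (miR-212, miR-383 and the season effects) stayed on their side. DESeq2 on the recovered reads called 2 members in SUM vs. SAN, miR-132 and miR-224. With 1 library left out, the members called ranged from 0 to 1 in FOV vs. SOV and from 0 to 1 in FOV vs. SUM, the 1 being miR-212 without FOV_4, a call that supports nothing, since the filter admitted miR-212 only through FOV and the library left out was the FOV library with no read. All reversals were of differences with an adjusted p of 0.697 or more by limma in the main fit, and their cause was not tested. Among them, miR-132 in SOV vs. SAN had a log2 FC of -1.03 there, past the 2-fold part of the threshold. With FOV_1 kept, log2 FC was -0.49 for miR-132 in FOV vs. SAN and 0.18 for miR-224 in FOV vs. SUM. With median-of-ratios scaling it was 0.10 for miR-378 in SOV vs. SAN and -0.034 for miR-132 in FOV vs. SAN. With DESeq2 it was 0.021 and -0.13 for the same results, and with edgeR -0.062 for miR-132 in FOV vs. SAN. At a pseudocount of 20 CPM it was 0.043 for miR-224 in FOV vs. SUM, and with miR-9a as a covariate 0.44 there and 0.15 for miR-132 in SOV vs. SAN. With 1 library left out, miR-378 ranged from -0.46 to 0.18 in SOV vs. SAN, from -0.045 to 0.75 in FOV vs. SAN and from -0.72 to 0.042 in FOV vs. SUM. MiR-132 ranged from -0.38 to 0.47 in FOV vs. SAN, and miR-224 from -1.43 to 0.16 in SOV vs. SAN and from -1.70 to 1.96 in FOV vs. SUM.

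Seasons share replicate numbers, but no label says that these pair the libraries. Deviations of libraries with the same number correlated at -0.27 to 0.27 (median 0.01 over 21 pairs). With different numbers they correlated at -0.18 to 0.24 (median -0.003 over 63 pairs). Such correlations cannot decide whether libraries shared mares, since each library is a pool. With the replicate block, 0 members were called in every comparison. Over all 282 miRNAs, calls in SUM vs. SAN were 27, with 10 to 27 when 1 library was left out and 16 to 58 under the other alternatives. In the same order, calls were 50 in SUM vs. SOV (32 to 57, 41 to 59), 2 in FOV vs. SAN (0 to 6, 0 to 12), 8 in FOV vs. SOV (6 to 15, 3 to 20), 10 in FOV vs. SUM (4 to 19, 6 to 16), 0 in SOV vs. SAN (0 to 5, 0 to 1) and 39 for the season effect (20 to 50, 24 to 77). In the granulosa list, the call of miR-125b-5p in SUM vs. SAN was lost with no filter (adjusted p = 0.0543), equal totals, TMM over 15 libraries, the compared seasons alone, the block, edgeR (0.111) and the covariate, and without any 1 of 11 libraries. MiR-27a lost its call in FOV vs. SOV with median-of-ratios scaling (0.0820) and without FOV_4 (0.0839), and in SUM vs. SAN without any of 6 single libraries (adjusted p up to 0.0807), while the calls of miR-145 and miR-92a held in every alternative. At a filter of 100 CPM miR-212 and miR-383 were not tested. The number of reads assigned to miRNAs limits the low members, since 1 read is worth up to 35.6 CPM. For miR-378, in contrast, the spread between libraries exceeded counting error.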
